A study of Mus musculus with 8 samples.

Results

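Cdkn1a, the D cyclins and the antiproliferative genes of the BTG and GADD45 families were followed in satellite cells (SCs) of control and exercise mice. SCs are resident stem cells that rebuild muscle fibers after damage. The 10 genes, of 52535 gene symbols in the expression table, were Cdkn1a, Cdkn1c, Ccnd1, Ccnd2, Ccnd3, Btg1, Btg2, Gadd45a, Gadd45b and Gadd45g. They were selected by symbol, and Cdkn1a was chosen by its higher FPKM in exercise libraries, so its values are a description and carry no test. Both groups were male C57B/6J mice, 10 weeks old at the start. Exercise mice ran on a treadmill for 4 weeks, on 4 days per week, for 30 min per day at 12 m/min, and control mice stayed sedentary. Each group had 4 libraries of polyA RNA from about 800 sorted SCs, read as 150-bp pairs. The study's figure legends count mice as replicates for these data, and the labels tie no library to an animal, so p-values measure the spread between these libraries, part of which may be technical.

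Entry into the cell cycle from the resting state is controlled in G1 by D cyclins, which bind and activate Cdk4 and Cdk6 and so lead to phosphorylation of the retinoblastoma protein. Cdkn1a (p21), a classical target of p53, and Cdkn1c (p57) encode inhibitors of cyclin-dependent kinases and are also known for their part in the cell cycle exit of muscle precursors. Btg1 and Btg2 encode small antiproliferative proteins that recruit the CCR4-NOT deadenylase to mRNAs, and the GADD45 proteins bind p21, PCNA and the upstream kinases of p38 and JNK in stressed cells.

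The 250 bases before the annotated start are shown for Cdkn1a, which had the highest log2 fold change among these genes, and for Gadd45a, which had the lowest. RefSeq promoter windows (GRCm38.p6) matched 7 of the 10 genes, and Cdkn1a had 2 annotated starts, 2790 bases apart. Capitals mark GC boxes, searched as GGGCGG, half-sites of the p53 consensus, and the box named CCAAT for its letters, on both strands, with the gene's strand written 5′ to 3′.
Cdkn1a, first start, chr17:29090729-29090978, plus strand: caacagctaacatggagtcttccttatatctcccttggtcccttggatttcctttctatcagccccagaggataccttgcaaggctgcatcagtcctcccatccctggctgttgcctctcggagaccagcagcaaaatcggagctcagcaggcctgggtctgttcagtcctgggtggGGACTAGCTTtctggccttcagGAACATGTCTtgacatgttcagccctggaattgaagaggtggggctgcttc
Cdkn1a, second start, chr17:29093519-29093768, plus strand: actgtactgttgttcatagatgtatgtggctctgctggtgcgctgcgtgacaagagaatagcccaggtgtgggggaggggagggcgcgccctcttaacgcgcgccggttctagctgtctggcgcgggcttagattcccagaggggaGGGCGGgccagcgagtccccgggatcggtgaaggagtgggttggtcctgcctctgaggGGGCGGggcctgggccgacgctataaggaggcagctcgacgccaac
Gadd45a, chr6:67037408-67037657, minus strand: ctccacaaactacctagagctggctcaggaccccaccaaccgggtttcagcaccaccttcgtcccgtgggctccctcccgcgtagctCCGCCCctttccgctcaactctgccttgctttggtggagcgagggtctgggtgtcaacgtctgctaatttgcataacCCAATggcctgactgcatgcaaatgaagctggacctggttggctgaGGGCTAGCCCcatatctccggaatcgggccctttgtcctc

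The first Cdkn1a window held 2 exact p53 half-sites, 73 and 51 bases before the start, and the half-site at 51 bases was followed without a gap by another that was 1 letter off. Of 32851 such windows over all genes, 7.13% held an exact half-site and 25, or 0.0761%, held an adjacent pair with at most 1 letter off. The Gadd45a window held 1 half-site, 40 bases before the start, beside 1 GC box and 1 CCAAT box, which were in 32.7% and 33.8% of all windows. The second Cdkn1a window held 2 GC boxes and no p53 half-site. A match describes the letters of these windows and is not a binding site.

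The libraries set limits on every value below. Control libraries held 2339966 to 3013354 reads on 5169 to 7307 genes, and exercise libraries 1011737 to 1200221 reads on 2348 to 3289 genes. Reads on the mitochondrial genome were 2.09% to 15.3% in controls and 7.56% to 68.7% in exercise libraries, with 50.2% in exercise 3 and 68.7% in exercise 4. Exercise 1 and 2 gave a chi-square over its degrees of freedom of 3.86, against 82.6 to 711 for the other pairs within a group. Control 4 kept a median of 0.281 of the level of 345 genes that were read in control 1, at least 50 times, but never in control 3, and 0.714 of that of 658 genes read in control 3 and not in control 1, which sum to 0.996. The same shares of exercise 3 were 0.299 for 139 genes of exercise 1 and 0.677 for 142 genes of exercise 4, which sum to 0.976. Fold changes of the 7 tested genes among the 10 are therefore also given after averaging exercise 1 and 2 (the averaged set), and after dropping control 4 and exercise 3 from that set (the reduced set). The sort kept cells with CD34 and integrin α7 on their surface and removed those with blood, endothelial or Sca1 markers. Of the SC markers, Pax7, Itga7, Cdh15 and Calcr had no read in any library, and the 10 markers summed to 19.9 to 41.5 FPKM in controls and 31.9 to 83.6 FPKM in exercise libraries. Most of the exercise sum was Sdc4, a surface proteoglycan of SCs and other cells, and without it the other markers summed to 6.72 to 16.7 and 1.90 to 9.63 FPKM. All 8 myofiber markers were read, at a sum of 23970 to 52170 and 11860 to 40730 FPKM, and all 6 fibro-adipogenic markers, at 1405 to 2217 and 1485 to 2218 FPKM. Of 6 endothelial markers Kdr alone had reads, at 0 to 2994 FPKM in controls and 0 to 0.53 FPKM in exercise libraries. The libraries are called SCs by their label, which these markers do not bear out. The part of other cells in the results below was not tested, and in RNA from pooled cells, fewer cells of a type and less RNA per cell cannot be told apart.

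Across the 10 genes, Cdkn1a was 11.0-fold higher in mean FPKM in exercise libraries, Gadd45a was 4.5-fold lower without passing the test, and Btg2, the most abundant, did not change detectably. Ccnd1 and Ccnd3 were all but unread, so Ccnd2 was the D cyclin that could be compared. Of these genes 7 had a mean of at least 1 FPKM and entered the limma fit of 4328 genes, and Cdkn1c, Ccnd1 and Ccnd3 did not. Of the 6 tested genes other than Cdkn1a, 0 were higher and 0 lower at a limma adjusted p under 0.05, and 1, Gadd45a, had an unadjusted p under 0.05, as did 49.6% of all genes tested. Over all genes tested, 8.78% were called higher and 26.8% lower. Groups did not overlap for 1 of the 6, Gadd45a, which was lower, against 7.62% of all genes higher and 24% lower. The median log2 fold change was -0.29 for the 6 genes and -1.42 for all 4328 genes tested. The latter depended on the filter, at -0.80 with 1 FPKM in 4 libraries and -0.32 with no filter. Quantile normalization moved the median of all genes to -0.76 and the share of calls that were higher from 24.7% to 47.4%, while a constant sum of FPKM moved them to -1.89 and 15.5%.

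**Figure D1:**
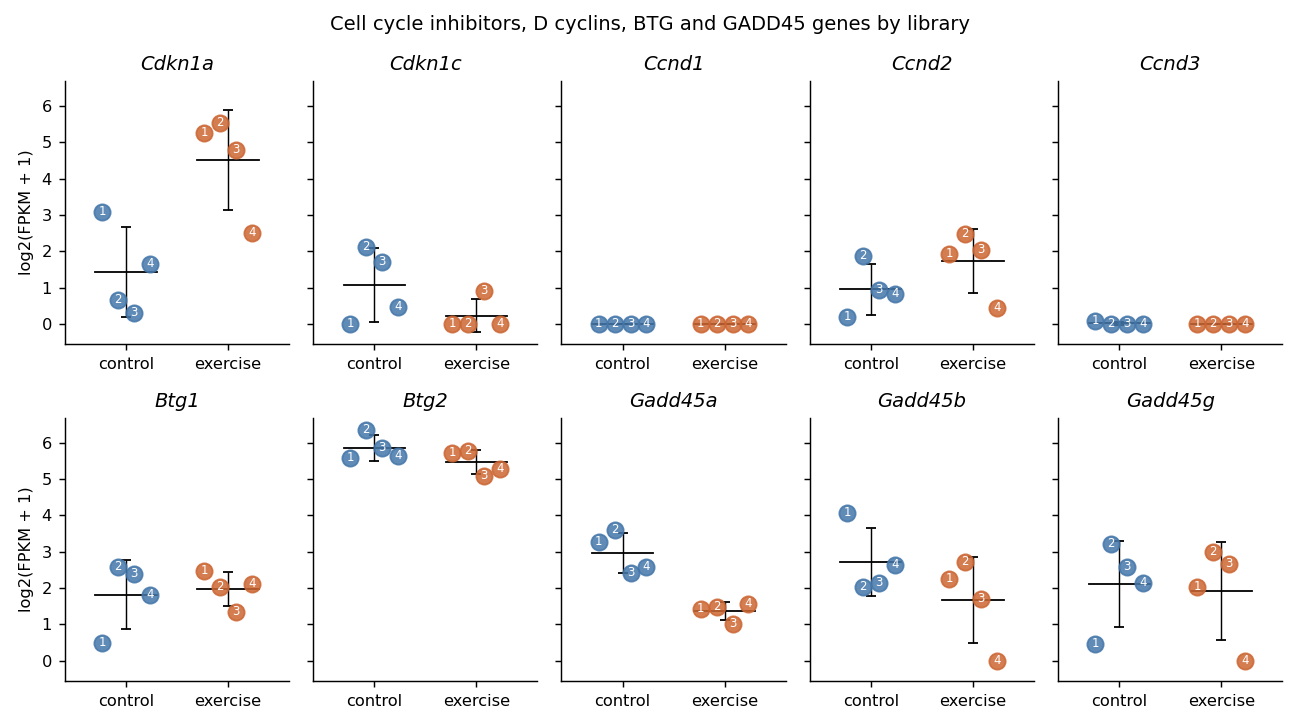
Expression of the 10 genes on the log2(FPKM + 1) scale, with 1 numbered point per library, in control (blue) and exercise (orange) libraries. Long bars are means and error bars are SDs (n = 4). Exercise 1, 2 and 3 lay above every control for Cdkn1a, all 4 exercise libraries lay below every control for Gadd45a, and Ccnd1 lay at 0 in all 8 libraries.

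Cdkn1a (ENSMUSG00000023067, GRCm38 chr17:29090979-29100722, plus strand) was the gene chosen for its rise. Its level was 7.45, 0.588, 0.231 and 2.15 FPKM in control 1 to 4 and 37.4, 45.4, 26.8 and 4.68 FPKM in exercise 1 to 4. Exercise 1, 2 and 3 lay above every control, but exercise 4 lay under control 1, so the groups overlapped. The means were 2.60 ± 3.34 and 28.6 ± 17.7 FPKM (SD, n = 4 each), a log2 fold change of 3.10 on log2(FPKM + 1), given with no interval since these libraries chose the gene. Every control and exercise value rested on its own count of reads, from 2 to 38 in controls and 139, 161, 66 and 3 in exercise 1 to 4. For exercise 4, the 3 reads gave an exact Poisson interval of 0.966 to 13.7 FPKM, which spans control 1 and control 4, and like all intervals here it covers counting error only.

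The size of the Cdkn1a difference moved with the libraries used. Its direction was what chose the gene and is no result of these fits. The fold of mean FPKM was 9.33 in the averaged set, 8.36 in the reduced set and 14.0 without exercise 4. As RPM, reads scaled to the library total, a scaling chosen after seeing the data, Cdkn1a was 16.2, 1.5, 0.664 and 6.81 in controls and 131, 159, 55.0 and 2.60 in exercise libraries. On that scale exercise 4 was below control 1 and control 4, and exercise 3 stayed above every control. Over the fits listed in the closing section the log2 fold change of Cdkn1a ranged from 2.61 to 4.13, and it was 4.52 above the median of all genes tested with the deposited scaling.

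Cdkn1c (ENSMUSG00000037664, chr7:143458339-143461050, minus strand), the other inhibitor of the Cip/Kip family among the 10 genes, did not follow Cdkn1a. Its level was 0, 3.36, 2.26 and 0.369 FPKM in control 1 to 4, from 42 reads in all. It had 2 reads in exercise 3 (0.885 FPKM) and none in the other exercise libraries. Controls 2 and 3 lay above every exercise library, and control 1 was at 0, so the groups overlapped. The mean was 1.5 ± 1.59 FPKM in controls and 0.221 ± 0.442 FPKM in exercise libraries (SD, n = 4 each), with a difference in mean log2(FPKM + 1) of -0.84 and an exact two-sided permutation p of 0.257, where the smallest p of 70 assignments is 0.0286. In exercise 4, 3 reads correspond to 5.11 FPKM, above every control, so a level like that of the controls was not detectable at its depth.

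The D cyclins were represented by Ccnd2. Ccnd1 (chr7:144929931-144939925, minus strand) had no read in any of the 8 libraries, which allows up to 0.16 to 0.278 FPKM in controls and 0.381 to 2.21 FPKM in exercise libraries at 3 reads per library. Ccnd3 (chr17:47505051-47599691, plus strand) had 1 read, in control 1 (0.0497 FPKM), and none in the other 7 libraries, with an exact two-sided permutation p of 1. Ccnd3 overlaps Bysl on the opposite strand, which had 59 reads over the 8 libraries, and whether the authors counted by strand is not given in the sources used here.

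Ccnd2 (ENSMUSG00000000184, chr6:127125162-127152193, minus strand) was at 0.139, 2.64, 0.899 and 0.774 FPKM in control 1 to 4 and at 2.80, 4.6, 3.07 and 0.369 FPKM in exercise 1 to 4. Exercise 1, 2 and 3 lay above every control, as for Cdkn1a, but exercise 4 held 1 read and lay below 3 of the 4 controls. The means were 1.11 ± 1.07 and 2.71 ± 1.75 FPKM (SD, n = 4 each). The log2 fold change of 0.77 (SE 0.65, 95% interval -0.68 to 2.23) did not pass the test (limma adjusted p = 0.338). It was 0.62 in the averaged set and 0.35 in the reduced set. Among the 19 alternative fits it passed under quantile normalization alone, at a log2 fold change of 2.08 (adjusted p = 0.0493, range 0.0493 to 0.853 over the alternatives).

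**Figure D2:**
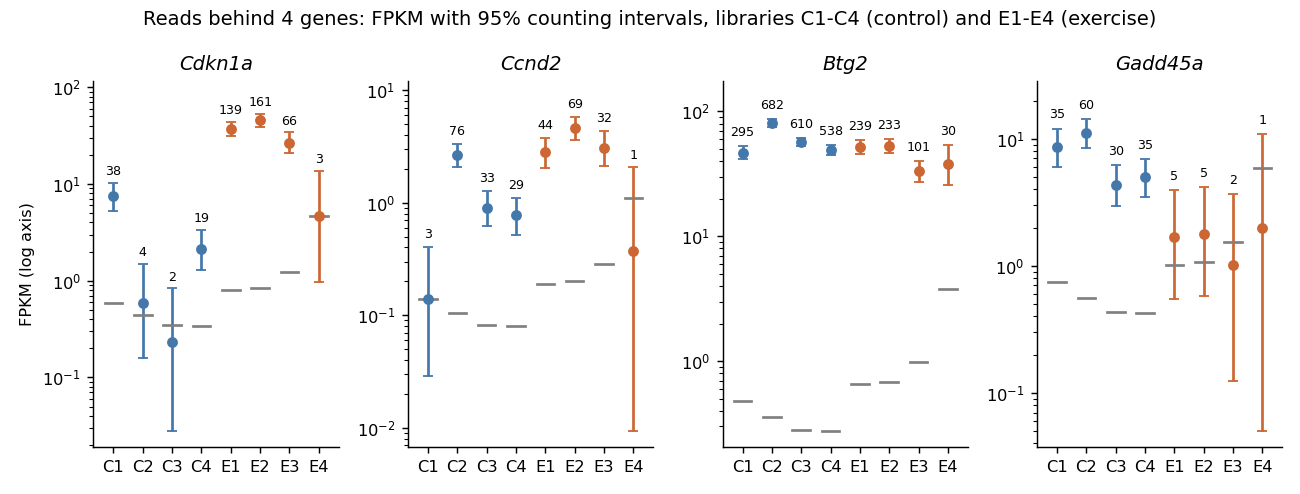
FPKM of Cdkn1a, Ccnd2, Btg2 and Gadd45a in each library on a log axis, with exact Poisson 95% intervals, the number of reads above each point and a gray bar at the FPKM that 3 reads give. Btg2 rested on 30 to 682 reads per library, while Cdkn1a, Ccnd2 and Gadd45a rested on 3, 1 and 1 reads in exercise 4.

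Of the BTG genes, Btg2 was by far the more abundant and Btg1 was low in both groups. Btg2 (ENSMUSG00000020423, chr1:134075170-134079120, minus strand) was at 46.9, 81.2, 57 and 49.2 FPKM in control 1 to 4 and at 52.1, 53.2, 33.2 and 38.0 FPKM in exercise 1 to 4. Exercise 1 and 2 lay within the controls and exercise 3 and 4, the libraries with most mitochondrial reads, lay below them. The means of 58.6 ± 15.7 and 44.1 ± 10.1 FPKM (SD, n = 4 each) did not differ beyond the spread between libraries, with a log2 fold change of -0.39 (SE 0.61, 95% interval -1.75 to 0.96, limma adjusted p = 0.6). The log2 fold change was 0.37 under quantile normalization, -1.08 under a constant sum and -0.85 in RPM. It was -0.49 in the averaged set and -0.42 in the reduced set. On FPKM, which is per length, every control value of Btg2 exceeded every value of the other 9 genes in any library, the highest of which was 45.4 FPKM for Cdkn1a in exercise 2.

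Btg1 (ENSMUSG00000036478, chr10:96617006-96622809, plus strand) was at 0.413, 4.95, 4.27 and 2.52 FPKM in control 1 to 4 and at 4.53, 3.09, 1.54 and 3.29 FPKM in exercise 1 to 4. Control 1 was the lowest of the 8 libraries and control 2 the highest, and every exercise library lay between them. The means were 3.04 ± 2.03 and 3.11 ± 1.23 FPKM (SD, n = 4 each), with a log2 fold change of 0.16 (SE 0.68, 95% interval -1.35 to 1.68, limma adjusted p = 0.851). It was 0.08 in the averaged set and 0.36 in the reduced set. Under a constant sum the value was -0.25, so neither a rise nor a fall of Btg1 could be read from these libraries.

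Of the GADD45 genes, Gadd45a alone had groups apart. The mean FPKM of all 3 was lower in exercise libraries, but that of Gadd45g was higher without exercise 4 (5.13 against 4.29 FPKM), and Gadd45b and Gadd45g had log2 fold changes above 0 under quantile normalization. Gadd45a (ENSMUSG00000036390, chr6:67035096-67037457, minus strand) was at 8.65, 11.1, 4.36 and 4.98 FPKM in control 1 to 4 and at 1.70, 1.78, 1.02 and 1.97 FPKM in exercise 1 to 4. All 4 exercise libraries lay below all 4 controls. The means were 7.27 ± 3.18 and 1.61 ± 0.41 FPKM (SD, n = 4 each), 4.5-fold apart. The log2 fold change of -1.60 (SE 0.60, 95% interval -2.94 to -0.25) missed the threshold (limma adjusted p = 0.0602).

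The depth and the scaling bear on the Gadd45a difference. The exercise values rested on 5, 5, 2 and 1 reads against 30 to 60 reads in controls, and 3 reads in exercise 4 correspond to 5.90 FPKM, above control 3 and control 4. Gadd45a passed the test without control 1 (log2 fold change -1.49, adjusted p = 0.0217) and without exercise 4 (-1.66, adjusted p = 0.0378), and in 6 of 19 alternatives in all, over which the adjusted p ranged from 0.0217 to 0.978. It did not pass in the averaged set (-1.62, adjusted p = 0.125) or in the reduced set (-1.59, adjusted p = 0.512). Under quantile normalization its log2 fold change was -0.03. With the deposited scaling Gadd45a was 0.18 below the median change of the 4328 genes tested, which was -1.42 on the log2 scale. That median was -0.80 with 1 FPKM in 4 libraries and -0.32 with no filter, where Gadd45a stayed at -1.60. How close Gadd45a stood to the other genes therefore depended on the filter.

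Gadd45b (ENSMUSG00000015312, chr10:80930073-80932204, plus strand) was at 15.6, 3.08, 3.39 and 5.21 FPKM in control 1 to 4 and at 3.76, 5.52, 2.27 and 0 FPKM in exercise 1 to 4. Control 1 was far above the rest and the other libraries overlapped. The means were 6.83 ± 5.95 and 2.89 ± 2.34 FPKM (SD, n = 4 each). The log2 fold change was -1.05 (SE 0.81, 95% interval -2.85 to 0.76, limma adjusted p = 0.295), and it was 0.22 under quantile normalization, -0.49 without exercise 4, -0.60 without control 1, -1.31 in the averaged set and -1.49 in the reduced set. Gadd45g (ENSMUSG00000021453, chr13:51846678-51848468, plus strand) was at 0.372, 8.35, 5.02 and 3.42 FPKM in control 1 to 4 and at 3.06, 6.95, 5.38 and 0 FPKM in exercise 1 to 4. Its groups overlapped throughout, at means of 4.29 ± 3.32 and 3.85 ± 3.02 FPKM (SD, n = 4 each), with a log2 fold change of -0.18 (SE 0.89, 95% interval -2.17 to 1.80, limma adjusted p = 0.872) that was 0.90 under quantile normalization, 0.46 without exercise 4, 0.19 without control 2, -0.35 in the averaged set and -0.80 in the reduced set. For Gadd45b and Gadd45g the 0 in exercise 4 allowed up to 6.55 and 8.88 FPKM at 3 reads, above 3 of 4 and all 4 controls.

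**Figure D3:**
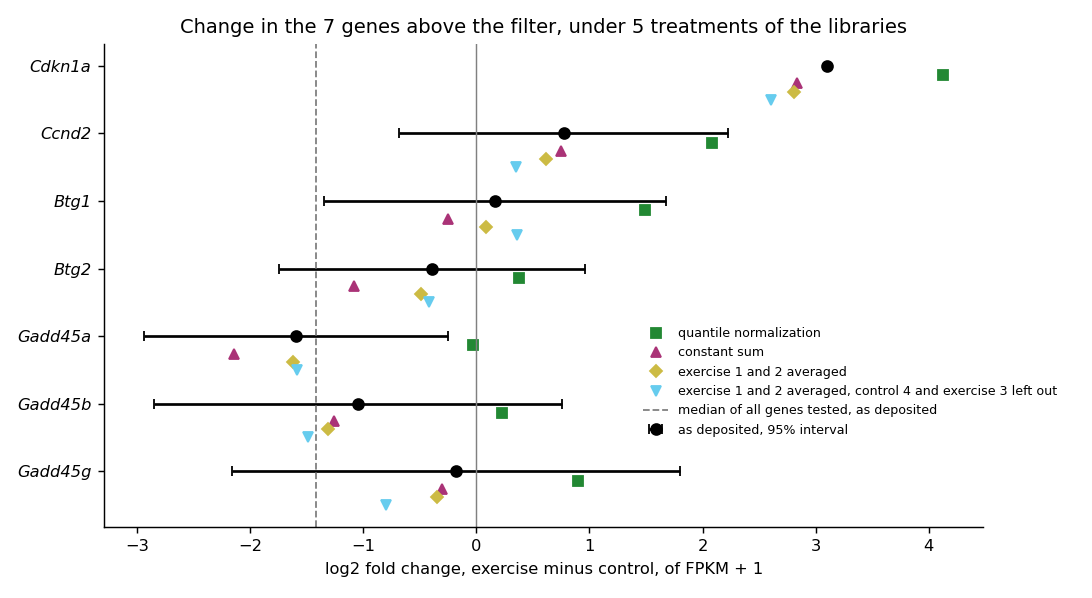
Log2 fold change (exercise minus control, log2 of FPKM + 1) of the 7 genes above the filter, as deposited (black, with 95% intervals for all but Cdkn1a) and under 4 other treatments of the libraries (colored symbols). The dashed line is the median of all genes tested, -1.42. Btg1, Btg2, Gadd45b and Gadd45g lay on either side of 0, depending on the treatment.

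The genes whose pattern was most like that of Cdkn1a were Zbtb8os, Igfbp7, Htra1, Brd2 and Mapre1, with Pearson r of 0.997, 0.995, 0.992, 0.991 and 0.991 on log2(FPKM + 1) over the 8 libraries. Depth differed between the groups and some libraries may share RNA, so these are descriptions. Igfbp7, a secreted protein that binds insulin-like growth factors, was at 30.3, 6.75, 2.97 and 12.9 FPKM in control 1 to 4 and at 248, 263, 140 and 23.0 FPKM in exercise 1 to 4. Like Cdkn1a, Igfbp7 was highest in exercise 1 and 2, about midway in exercise 3 and lower in exercise 4 than in control 1. Brd2, a bromodomain protein that binds acetylated histones, was at 3.23, 0.0448, 0.0352 and 0.861 FPKM in controls and at 37.7, 40.7, 23.0 and 2.86 FPKM in exercise libraries, in the same order. Of the other 6 tested genes, Ccnd2 was the most like Cdkn1a (r = 0.53, place 719 of 4327 genes) and Gadd45a the least (r = -0.72, place 3157). Actb, the reference gene, was at 187, 835, 514 and 364 FPKM in controls and at 2819, 2811, 1502 and 430 FPKM in exercise libraries, with a log2 fold change of 1.86 (SE 0.75, limma adjusted p = 0.0734).

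Other genes of the same pathways came from 8 lists of 125 genes in all, of which 34 entered the fit, 2 were called higher and 5 lower, with a median log2 fold change of -0.96, or -0.74 with the 5 genes unread in all exercise libraries set to 3 reads there. Over all genes tested the same call was made for 8.78% and 26.8%. The 2 higher genes were Tob1 and Jund, and the 5 lower genes were Ier3, Atf3, E2f6, Mnat1 and Fas. Jund, Mnat1 and Fas had overlapping groups and are named after their values were seen. Of the 21 early response genes all were read in some library, and of the 20 S, G2 and M genes 7 were. These counts moved with single libraries, as did those over all genes tested, which were 380 higher and 1161 lower with all 8 libraries. They were 2 and 11 without control 1, beside 396 and 1503 over all genes, and 6 and 5 without exercise 4, beside 568 and 843. They were 1 and 2 without control 2 or without control 3, beside 205 to 242 and 599 to 761 over all genes. Without control 4, exercise 1, exercise 2 or exercise 3 they were 1 and 1, beside 164 to 178 and 360 to 421. In the averaged set, 1 gene was higher and 1 lower, beside 178 and 418.

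**Figure D4:**
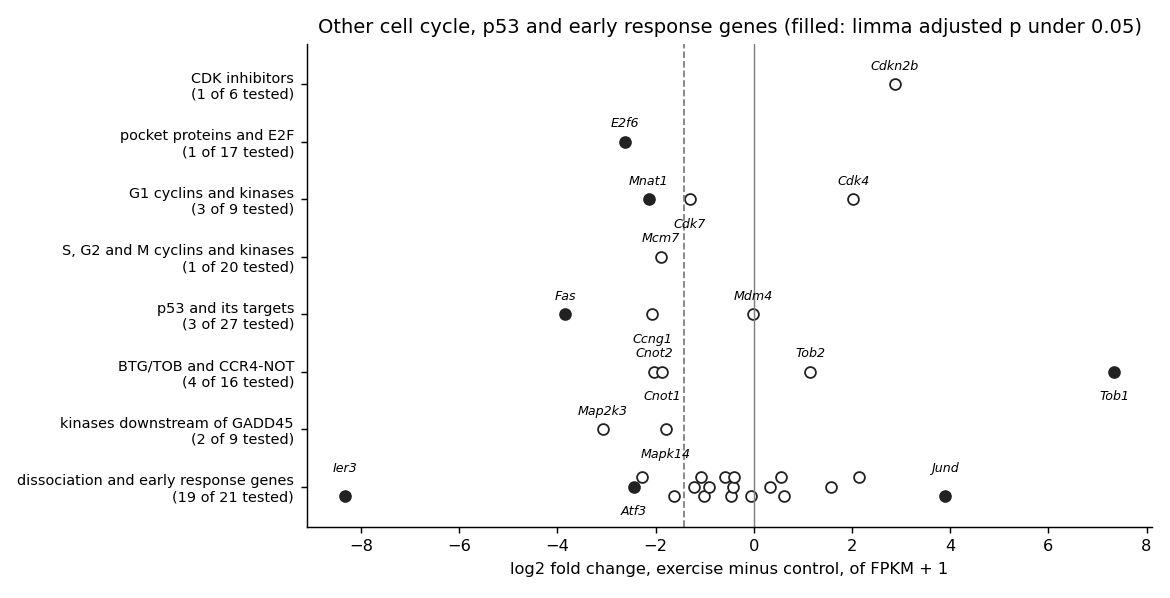
Log2 fold change (exercise minus control, log2 of FPKM + 1) of the 34 list genes in the fit, with 1 point per gene, filled at a limma adjusted p under 0.05. The solid line is 0 and the dashed line is the median of all genes tested, -1.42. Tob1 stood at 7.34 and Ier3 at -8.33.

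Tob1, an antiproliferative protein of the same family as Btg1 and Btg2, showed the largest rise among the list genes. It was at 0.953, 2.0, 0.672 and 1.21 FPKM in control 1 to 4, from 5 to 14 reads, and at 813, 869, 421 and 48.5 FPKM in exercise 1 to 4, from 3111, 3174, 1067 and 32 reads. Every exercise library exceeded every control, with exercise 4 the lowest of the 4, as for Cdkn1a. The means were 1.21 ± 0.571 and 538 ± 382 FPKM (SD, n = 4 each). The log2 fold change was 7.34 (SE 0.97, limma adjusted p = 0.00112), and it passed in 18 of 19 alternatives, whose log2 fold changes ranged from 6.58 to 8.28 and adjusted p from 7.33e-05 to 0.201. The exception was the reduced set, where the fold of mean FPKM was 368 and 0 of 4499 genes passed, with 469 at an unadjusted p under 0.05. Its relative Tob2 was at 5.46, 0.164, 0 and 1.26 FPKM in controls and 8.83, 9.10, 3.16 and 0 FPKM in exercise libraries, and was not called (limma adjusted p = 0.318). Of the 16 genes of this family and of the CCR4-NOT complex, 4 were tested, 1 was called higher and 0 lower.

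Of the other inhibitors of cyclin-dependent kinases, Cdkn1b, Cdkn2a and Cdkn3 had no read in any library, and Cdkn2b was the 1 of 6 listed genes that was tested. Cdkn2b (p15), an inhibitor of Cdk4 and Cdk6, was at 1.88, 0, 0 and 0.18 FPKM in controls and at 0, 0, 40.1 and 239 FPKM in exercise 1 to 4. It was thus high in exercise 3 and 4, where Cdkn1a was lowest among exercise libraries, and was not called (limma adjusted p = 0.174). Of the 9 G1 cyclins and kinases 3 were tested, with 0 called higher and 1, Mnat1, lower. Without exercise 4, 1 gene of this list, Cdk4, and 1 of the inhibitor list were called higher. The filter was applied anew in that fit, so the inhibitor need not be Cdkn2b. Cdkn2d, under the filter with all 8 libraries, was at 0.831, 0, 0 and 0 FPKM in controls. It was at 2.28, 2.79 and 1.72 FPKM in exercise 1 to 3, from 6, 7 and 3 reads. Cdk4, the kinase partner of D cyclins, was at 0, 0.101, 0.315 and 0.232 FPKM in controls and at 10.7, 11.0, 2.50 and 0 FPKM in exercise libraries, a log2 fold change of 2.03 that did not pass the test (limma adjusted p = 0.0727). Mnat1, the assembly factor of the Cdk-activating kinase, was at 2.43, 15.9, 8.47 and 6.39 FPKM in controls and at 3.11, 0.582, 0.67 and 0 FPKM in exercise libraries, a log2 fold change of -2.14 (limma adjusted p = 0.0475) that was called in 5 of 19 alternatives.

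Of 17 pocket proteins and E2F factors 1 was tested, E2f6, a repressor of the E2F family, which was lower. It was at 26.6, 1.10, 1.72 and 8.20 FPKM in controls and had no read in any exercise library (log2 fold change -2.63, limma adjusted p = 0.0371). Setting each exercise library to 3 reads, the mean of E2f6 was at least 12.7-fold lower in exercise libraries, and at least 4.95-fold without control 1. In exercise 4, 3 reads correspond to 1.84 FPKM, above control 2 and control 3. E2f6 was called in 9 of 19 alternatives. Of 20 S, G2 and M cyclins and kinases, 13 had no read in any library, among them Ccnb1 and Ccnb2, the B cyclins of mitosis. The 1 tested gene, Mcm7, a subunit of the replicative helicase, was at 0, 7.45, 4.52 and 3.12 FPKM in controls and had no read in any exercise library (log2 fold change -1.90, limma adjusted p = 0.0503). With 3 reads in each exercise library the mean of Mcm7 was at least 3.98-fold lower, and at least 2.68-fold without control 2. In exercise 4, 3 reads correspond to 2.35 FPKM, above control 1. The list had 1 gene called lower in 5 alternatives, among them the fit without control 1. Of the helicase genes under the filter, Mcm6 had 26, 26 and 22 reads in controls 2 to 4 and none elsewhere, and Mcm4 had 52, 24 and 4 reads in the same controls and 1 read in exercise 3. Mki67, the proliferation marker, went the other way, with 10 and 20 reads in exercise 3 and 4 (0.897 and 6.90 FPKM) and none elsewhere. Mcm4, Mcm6, Mcm7 and Mki67 are named after their values were seen.

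Of 27 genes of p53 and its targets, 17 had no read in any library, among them Trp53 itself, 3 were tested, 0 were called higher and 1, Fas, was lower. Fas, a death receptor, was at 0, 54.4, 35.1 and 19.9 FPKM in controls and unread in exercise libraries (log2 fold change -3.84, limma adjusted p = 0.0337). With 3 reads in each exercise library its mean was at least 11.7-fold lower, and at least 7.9-fold without control 2. Fas was called in 8 of 18 alternatives. Ccng1, a p53 target of the cyclin G family, was at 59.7, 27.9, 30.0 and 32.7 FPKM in controls and at 2.55, 1.07, 11.8 and 61.3 FPKM in exercise libraries, and was not called (limma adjusted p = 0.136). Exercise 1 and 2, the libraries with the most Cdkn1a, held the least Ccng1 of the 8 libraries. Of the 9 kinases downstream of GADD45, 2 were tested and 0 were called, with a limma adjusted p of 0.136 for Mapk14 (p38) and 0.0697 for Map2k3. The unadjusted p of Map2k3 was under 0.05, as was that of 49.6% of all genes tested. The number of these kinases called lower was 2 without control 1, and 1 without exercise 4, under either constant sum and in RPM. Cdkn2b, Cdkn2d, Cdk4, Tob2, Ccng1, Mapk14, Map2k3 and Fos, like Jund, Mnat1 and Fas, are named after their values were seen.

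Of 21 early response genes, a class also raised by dissociation of muscle, 19 were tested, 1 was called higher and 2 lower, with a median log2 fold change of -0.46. The list summed to 2651 to 4803 FPKM in controls and to 1174 to 2207 FPKM in exercise libraries, so every exercise library lay below every control. That separation rested on single genes. Without Ier3 the sums were 1847 to 4753 and 1174 to 2207 FPKM and overlapped. Without Ier3 and Fos they were 1235 to 1590 FPKM in controls and 706 to 1853 FPKM in exercise libraries. Ier3, an early response gene of the stress and NF-kappaB pathways, was at 49.7, 1455, 804 and 553 FPKM in controls and at 2.12 FPKM in exercise 1, from 4 reads, with none in the other exercise libraries. It was lower in every exercise library (log2 fold change -8.33, limma adjusted p = 0.000997) and called in 18 of 19 alternatives. Atf3, a stress-induced transcription factor, was at 201, 206, 161 and 166 FPKM in controls and at 72.2, 67.5, 33.5 and 6.44 FPKM in exercise libraries (log2 fold change -2.45, limma adjusted p = 0.0444), and was called in 4 of 19 alternatives. Jund, a member of the AP-1 complex, was at 61.7, 1.18, 0.922 and 10.1 FPKM in controls and at 278, 281, 130 and 12.5 FPKM in exercise libraries (log2 fold change 3.89, limma adjusted p = 0.0495), and was called in 6 of 19 alternatives. Exercise 4 lay under control 1 for Jund, as it did for Cdkn1a.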

How the data were processed

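RNA-seq of libraries labelled as SCs was deposited by the authors as a single FPKM table, made per the labels and methods with Bowtie 0.12.9, Cufflinks 2.1.1 and HTSeq on mm10, whose coordinates are those of GRCm38. The annotation release is not given in the sources used here. All FPKM values were whole numbers of reads (within 0.001) for a library size equal to a median-of-ratios size factor, so reads were recovered for depth and exact Poisson 95% intervals. Rows sharing a symbol were summed (101 rows fewer). Genes whose mean reached 1 FPKM were tested on log2(FPKM + 1), which understates changes of low genes, with limma 3.58.1 in R 4.3.3 (trend, two-sided, Benjamini-Hochberg adjustment over 4328 genes), and single values under that filter by exact permutation over 70 assignments. A run of the fit on simulated data used independent normal noise, so it does not cover libraries alike in RNA, unequal depth or counts of 0. A count of 0 was taken to allow 3 reads. The 10 genes, the lists and the tests were chosen with earlier results of these data known. All 10 genes are named, as are Cdkn1b, Ccnb1, Ccnb2, Trp53, Actb, the 5 genes most correlated with Cdkn1a, and list genes with an adjusted p under 0.05 and groups that do not overlap, at most 4 per list. Alternatives were a pseudocount of 0.1, no filter, 1 FPKM in 4 libraries, quantile normalization, a constant sum with and without mitochondrial genes, no trend, the replicate number as a block, leaving out each library, averaging exercise 1 and 2, and the same without control 4 and exercise 3. RPM was added after seeing the data.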

Additional observations from a re-analysis of the deposited data

Results flagged for a closer look

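Of 20 groups of 4 libraries examined over the 10 genes, 2 held a library far from the other 3. In both, the other 3 libraries were at exactly 0, so that any read sets the library apart, and the chance rate of 1 in 20, which is for values without ties, does not apply. Cdkn1c in exercise 3 was at 0.91 on the log2(FPKM + 1) scale, from 2 reads, with 0 in the other exercise libraries. Ccnd3 in control 1 was at 0.070 on the same scale, from 1 read, with 0 in the other controls.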

How the results depend on the processing

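The log2 fold change of Cdkn1a, whose direction chose it, was 2.61 to 4.13 over 19 alternatives and 2.73 to 3.77 with each library left out. That of Gadd45b was -1.39 to -0.49 with each library left out. Gadd45a passed the threshold at -1.60 with a filter of 1 FPKM in 4 libraries or without the trend, at -2.15 under a constant sum and at -1.64 under a constant sum outside the mitochondrial genome. In each of these 4 fits 1 of the genes other than Cdkn1a was called lower. With each library left out Gadd45a ranged from -1.78 to -1.39 and the number of such genes called lower was 0 to 1. Quantile normalization called 1 higher, Ccnd2 (2.08), and reversed Btg2 (0.37), Gadd45b (0.22) and Gadd45g (0.90). Btg1 reversed under a constant sum (-0.25) and in RPM (-0.081), and ranged from -0.28 to 0.41 with each library left out. Gadd45g ranged from -0.73 to 0.46, reversed without control 2 (0.19) and without exercise 4 (0.46). The cause was not tested. The pathway lists gave 1 higher and 1 lower gene without a filter, beside 234 and 606 of 9029 over all genes. They gave 1 and 1 in the averaged set, beside 178 and 418. Under a constant sum they gave 1 and 9, beside 269 and 1470 of 4328. In the reduced set they gave 0 and 0, and no gene of the table passed. The lower count was 2 under quantile normalization, beside 590. The higher count was 1 under a constant sum outside the mitochondrial genome, without the trend and in RPM, beside 384, 359 and 312. With each library left out, 1 to 6 were higher and 1 to 11 lower. Same-numbered libraries did not deviate together (r from -0.017 to 0.039), and the replicate block gave 2 lower list genes and 270 higher and 789 lower genes in all. Depth limits exercise 4 most, with 1 to 30 reads on the genes of the 10 that it held.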

Other observations

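Of 6 smooth muscle and pericyte markers, Myh11, a myosin of smooth muscle, had no read in any control and was at 70.1, 71.5, 35.6 and 3.14 FPKM in exercise 1 to 4 (limma adjusted p = 0.00646). Acta2, smooth muscle actin, was at 0.734, 0, 43.3 and 35.1 FPKM in controls and at most 2.03 FPKM in exercise libraries, without passing the test (log2 fold change -1.96, limma adjusted p = 0.22), Pdgfrb was at 2.02 to 4.65 and 0.633 to 17.5 FPKM (1.15, limma adjusted p = 0.286), and Tagln, Rgs5 and Cspg4 had no read. Of 6 fibro-adipogenic markers, Lum, a proteoglycan, was at 90.8 to 123 FPKM in controls and 311 to 531 FPKM in exercise libraries (2.02, SE 0.54, limma adjusted p = 0.0229). In the same list Pdgfra was at 9.44 to 35.0 FPKM in controls and 2.42 to 8.0 FPKM in exercise libraries, with the groups apart and the test not passed (-1.65, limma adjusted p = 0.084), and Dcn, Ly6a, Col1a1 and Col3a1 were at log2 fold changes of -0.09, 0.06, 0.89 and 1.12 and were not called (limma adjusted p = 0.863, 0.961, 0.396 and 0.285).

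Chodl, listed as an SC marker, was at 3.29 to 16.6 FPKM in controls with no read in exercise libraries (limma adjusted p = 0.00881). Of 8 myofiber markers Myh1 and Mb were lower (-2.75 and -7.09, limma adjusted p = 0.0174 and 0.0231). Ckm, Atp2a1, Acta1, Myh4 and Tnnt3 were at -2.72, -2.30, -0.65, -0.58 and -0.08 and were not called (limma adjusted p = 0.0883, 0.17, 0.198, 0.473 and 0.945). Myh2 was under the filter. Kdr of endothelium was lower (-7.82, limma adjusted p = 0.0281), with no read in control 1. Cd34, used in the sort, was at 0.12, 0.627, 1.48 and 1.27 FPKM in control 1 to 4 and at 7.55, 9.63, 3.09 and 1.90 FPKM in exercise 1 to 4, above every control, without passing the test (1.68, limma adjusted p = 0.0671). The marker calls come from the fit of all 8 libraries, in which 8.78% of all genes tested were called higher and 26.8% lower. No marker passed in the reduced set, where 0 of 4499 genes passed.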
